A study of Mus musculus with 23 samples.

Results

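The H19/Igf2 domain was examined as every measured window whose midpoint lay within a 115-kb stretch of mouse chromosome 7 (GRCm38) that holds H19, Igf2 and Ins2. Position alone chose the windows. The stretch held 57 of the 736796 windows deposited, 26 of 333984 in the E6.5 table and 31 of 402812 in the E7.5 table, and the same 31 windows were given again at E7.5 for each parental allele. DNA methylation was measured by post-bisulphite adaptor tagging (PBAT), a whole-genome bisulphite method for few cells, in the epiblast, which forms the embryo proper, and in the extraembryonic ectoderm (ExE), which forms part of the placenta. Values are the percentage of methylated CpG calls in a window, and differences between them are given in percentage points.

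All embryos were F1 hybrids, named mother first. B6/CAST embryos came from C57BL6/Babr x CAST/Ei matings, CAST/B6 embryos from CAST/Ei x C57BL6/Babr matings, and both were wild type. The mothers of matDKO/CAST embryos were C57BL6/Babr/129 females with floxed Dnmt3a and Dnmt3b, the de novo DNA methyltransferases, deleted in the growing oocyte by a Zp3-driven transgene. The fathers were CAST/Ei, so that the embryos themselves were heterozygous (Dnmt3a -/+, Dnmt3b -/+). At E6.5 each library was a chromatin input from a pool of 4 epiblasts or 8 ExE, with 3 B6/CAST, 3 CAST/B6 and 2 matDKO/CAST libraries for the epiblast and 2, 2 and 3 for ExE. At E7.5 each library was the tissue of a single embryo, taken through bisulphite conversion again after a poor first conversion, with 2 libraries per cross and tissue and no matDKO/CAST. Day, pooling and library preparation therefore cannot be told apart, and no value was tested across days.

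H19 and Igf2 are neighbouring imprinted genes. H19, a long non-coding RNA, is expressed from the maternal copy, and Igf2, a fetal growth factor, from the paternal copy. Between them, upstream of H19, lies the imprinting control region (ICR), which is methylated in sperm and unmethylated in the oocyte. The insulator protein CTCF binds the unmethylated maternal copy and keeps enhancers beyond H19 from reaching Igf2, and methylation of the paternal copy blocks that binding. In the GENCODE vM21 annotation H19 spans 142575529 to 142578143 and Igf2 spans 142650766 to 142666816 of chromosome 7, both on the minus strand.

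RefSeq places the ICR at chr7:142580248-142582833 and lists 4 CTCF sites in it. They are shown because they lie in the windows with the largest allelic difference of the domain. Each is read 5′ to 3′ on the H19 strand (minus), in the order met on leaving H19, and the capitals mark a 14-base core in which 11 letters are shared by all 4 sites.
Site m4 (chr7:142580301-142580347): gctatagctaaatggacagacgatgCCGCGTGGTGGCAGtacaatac
Site m3 (chr7:142580756-142580803): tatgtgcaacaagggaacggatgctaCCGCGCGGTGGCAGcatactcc
Site m2 (chr7:142581782-142581826): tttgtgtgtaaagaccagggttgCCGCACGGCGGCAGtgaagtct
Site m1 (chr7:142582026-142582073): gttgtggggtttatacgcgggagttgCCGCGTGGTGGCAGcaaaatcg

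From m4 to m1 the sites held 3, 4, 3 and 5 CpGs, of which 2, 3, 3 and 2 lay in the core. The core was written CCGCNNGGNGGCAG from these 4 sites, so that it had to match each of them. Searched on both strands, it had exactly 4 matches in the 115 kb, and so none besides these sites. Over the whole of chromosome 7, 53 of 82112 tiles of 1727 bp held a match (0.0645%). The E7.5 ICR window (chr7:142580361-142582087), also 1727 bp long, held m3, m2 and m1, while m4 lay across the end of its neighbour on the H19 side. In the E6.5 table the ICR window (chr7:142579326-142581760) held m4 and m3, and m2 and m1 fell in the next window.

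Igf2 has several promoters, and the RefSeq table (GRCm38) gave 4. The 250 bases before the start of 2 of them are shown, as the most and the least CpG-rich, on the Igf2 strand (minus) with CpGs in capitals.
Igf2 promoter at 142658804 (chr7:142658805-142659054): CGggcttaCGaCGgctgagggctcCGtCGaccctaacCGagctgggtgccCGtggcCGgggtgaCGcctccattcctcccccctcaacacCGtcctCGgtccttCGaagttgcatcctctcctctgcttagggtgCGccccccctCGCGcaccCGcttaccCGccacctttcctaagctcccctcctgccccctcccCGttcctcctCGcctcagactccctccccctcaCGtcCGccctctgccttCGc
Igf2 promoter at 142666816 (chr7:142666817-142667066): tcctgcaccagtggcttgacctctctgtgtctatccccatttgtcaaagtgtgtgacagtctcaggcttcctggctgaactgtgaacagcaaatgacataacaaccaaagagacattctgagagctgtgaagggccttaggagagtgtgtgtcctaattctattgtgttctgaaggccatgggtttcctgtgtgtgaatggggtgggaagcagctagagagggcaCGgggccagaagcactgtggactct

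The first holds 22 CpGs and the second 1. Counted over 300 bases, with 50 bases after the start, they held 24 and 2, against a median of 7 over 32851 promoters. The window of the first was at a low level and that of the second at an intermediate one, as given below. These levels belong to the whole windows, not to the bases shown.

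The labelled tissues were checked at 3 gene starts. At E7.5 the window of Elf5, a trophoblast gene methylated in the embryo, ranged from 80.4 to 92.6% in epiblast and from 60.8 to 69.1% in ExE. Pou5f1 and Nanog, pluripotency genes, were lower in all epiblast libraries (11.4 to 25.0% and 37.4 to 45.5%) than in all ExE libraries (37.2 to 42.1% and 51.6 to 62.6%). In wild-type E6.5 libraries the tissue ranges of Elf5 and Nanog overlapped. Mean methylation over all windows differed between groups, with 70.7% in B6/CAST, 79.1% in CAST/B6 and 53.9% in matDKO/CAST for the E6.5 epiblast, and 53.5, 64.97 and 40.8% for E6.5 ExE. At E7.5 it was 73.1 and 74.8% in the epiblast of the B6/CAST and CAST/B6 crosses and 57.6% in ExE of both. Read depth per window is unknown, and windows without a value made up 0.105 to 28.5% of a library at E6.5 and 0.0571 to 0.538% at E7.5. All p-values below rest on the spread between these libraries, which limma draws towards a value common to all windows. For matDKO/CAST against B6/CAST, limma also took the spread of the CAST/B6 libraries of that tissue.

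The E7.5 data gave a maternal and a paternal value in all 4 libraries for 23 of the 31 windows in ExE and for 13 in epiblast, and the allele values rest only on reads that cover a base differing between C57BL6 and CAST. The ICR window was the most strongly allelic of the domain in both tissues. In ExE its maternal allele was at 9.41, 10.0, 10.3 and 1.21% and its paternal allele at 82.3, 85.5, 88.0 and 93.2%, in the order B6/CAST 1 and 2, CAST/B6 1 and 2, which is kept for all E7.5 values below. In epiblast the maternal values were 0, 0, 10.9 and 3.57% and the paternal values 97.6, 72.0, 92.3 and 85.3%. No maternal value was above 10.9% and no paternal value below 72.0%.

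The paternal allele of the ICR exceeded the maternal by 79.5 ± 8.56 points in ExE (SD, n = 4; limma SE 4.34, adjusted p = 0.0298) and by 83.2 ± 10.6 points in epiblast (limma SE 5.38, adjusted p = 0.0392). The difference had the same direction in both crosses, at 74.2 points in B6/CAST and 84.9 in CAST/B6 ExE. For the single ICR value the exact two-sided sign-flip permutation test gave p = 0.13 in each tissue, the smallest that 4 libraries allow. The parental difference in epiblast was 3.64 points larger than in ExE, less than the spread (exact permutation p = 0.571).

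In the whole allele table, limma called 0.00722% of windows in ExE and 0.00838% in epiblast for a parental difference in either direction, and 0.0022 and 0.0021% with the paternal allele higher. In the domain it called 2 of 23 windows in ExE and 1 of 13 in epiblast, each with the paternal allele higher. Leaving out any of the 4 libraries left 0 calls in either tissue, in the domain and over all windows, with 1 residual degree of freedom. The ICR difference meanwhile stayed between 75.4 and 81.7 points in ExE and between 78.4 and 86.9 in epiblast.

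The other called ExE window was the neighbour of the ICR on the H19 side (chr7:142578205-142580327), which reaches to the start of H19 and includes most of m4. There the ExE maternal allele was at 18.4, 14.7, 22.8 and 10.8% and the paternal at 75.3, 72.9, 94.0 and 86.3%. The alleles did not overlap, and the paternal excess was 65.5 ± 9.35 points (limma SE 3.86, adjusted p = 0.0363). In epiblast the maternal values were 29.2, 8.33, 20 and 19.3% and the paternal values 88.9, 71.1, 83.3 and 100%. The excess there was 66.6 ± 9.52 points, with a limma adjusted p of 0.0544.

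The paternal excess continued into H19. The window over its start and first part, Mir675 included (chr7:142576656-142578204), had ExE maternal values of 0, 4.86, 6.25 and 0% and paternal values of 53.1, 44.6, 71.0 and 86.8%. All paternal values lay above all maternal ones, by 61.1 ± 19.98 points, but the window did not pass the test (limma SE 5.31, adjusted p = 0.216). Both CAST/B6 libraries had higher paternal values than both B6/CAST libraries, and the excess was 75.8 points in the former and 46.4 in the latter. The strain term, C57BL6 minus CAST, was 14.7 points (limma SE 5.31, adjusted p = 0.552). In epiblast the maternal values of this window were 16, 23.1, 13.3 and 35%. The paternal values were 50, 65.7 and 100%, with none in B6/CAST library 2, and the mean excess over 3 libraries was 50.5 points.

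At the 3′ end of H19 the tissues differed. The next window (chr7:142573005-142576655) holds the last part of the gene and the sequence beyond it. In ExE its maternal allele was at 32.3, 40.5, 31.7 and 32.9% and its paternal allele at 77.5, 64.0, 84.1 and 78.5%. In epiblast both alleles were high, the maternal at 87.7, 75, 96.7 and 89.8% and the paternal at 81.1, 77.3, 90.3 and 80.1%. The paternal excess was 41.7 ± 12.6 points in ExE (limma adjusted p = 0.777) and -5.12 ± 5.16 in epiblast, and no ExE library overlapped an epiblast library in it. The tissues were far apart on the maternal allele, whose highest ExE value was 40.5% and lowest epiblast value 75%, while the paternal values overlapped.

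For the difference of the parental difference between tissues, limma called 0.0% of windows at an adjusted p under 0.05, none in the domain. With an unadjusted p under 0.05, which 5.41% of all windows had, the window at the 3′ end of H19 was the only one of 13 in the domain (46.8 points, limma SE 6.49, unadjusted p = 4.6e-05, adjusted p = 0.912). Averaged over this window and the farthest one beyond H19 (from 142565417), the 2 on that side measured in all 8 libraries, the paternal excess was 26.1 points in ExE and -1.33 in epiblast. The farthest window alone was at 10.6 points in ExE and 2.46 in epiblast, and over all 3 windows on that side the ExE excess was 16.7 points. This difference of 27.4 points had an exact permutation p of 0.0286, the smallest that 4 against 4 allow, with 5 positions compared and no adjustment.

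**Figure D1:**
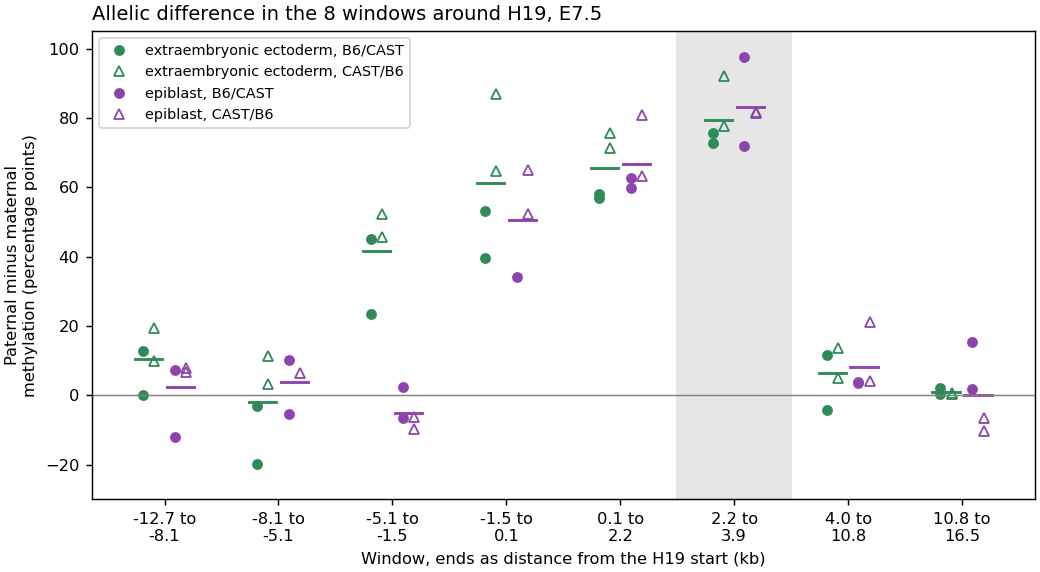
Paternal minus maternal methylation (percentage points, y axis) in the 8 windows around H19 at E7.5, with the ends of each window as distance from the H19 start in kb (x axis, positive towards Igf2); each point is 1 library, bars are means over libraries, and grey marks the ICR window. ExE and epiblast points overlap at the ICR and its neighbour, whereas in the window at the 3′ end of H19 ExE averages 41.7 and epiblast -5.12 points.

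The extent of the paternal methylation was taken as the unbroken run of windows around the ICR in which the paternal allele was higher in all 4 libraries. In ExE it covered 4 windows and 9083 bp (chr7:142573005-142582087), from 5.14 kb on the far side of the H19 start to 3.94 kb upstream of it, and so took in the whole of H19. In epiblast it covered 3 windows and 10782 bp (chr7:142578205-142588986), with the H19 start window left out because 1 paternal value was missing. The run depended on its definition in epiblast but not in ExE. A paternal excess in all 4 libraries that averaged at least 20 points was found in 4 windows in ExE and 2 in epiblast, against 0.187 and 0.173% of all windows. With this required instead, ExE kept the same 9083 bp, and epiblast kept 3883 bp (chr7:142578205-142582087), or 5432 bp from 142576656 where 3 libraries sufficed.

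On the Igf2 side the difference dropped in the window next to the ICR (chr7:142582140-142588986), which ended the ExE run and was the last one of the epiblast run. This window, which still holds the last part of the RefSeq ICR, had ExE maternal values of 68.6, 57.4, 56.6 and 62.0% and paternal values of 64.3, 69.0, 61.5 and 75.6%. In epiblast they were 87.0, 84.4, 72.2 and 72.5% and 90.4, 88.1, 76.3 and 93.7%. The alleles overlapped in both tissues, and the paternal excess was 6.48 ± 8.10 points in ExE and 8.11 ± 8.70 in epiblast, where the window after it was at 0.124 ± 11.4 points. On the far side of H19, the ExE run ended at a window (chr7:142570070-142573004) with a paternal excess of -2.04 ± 13.2 points, higher in 2 of 4 libraries.

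Elsewhere no window of the domain passed the test between alleles. The paternal allele was higher in all 4 libraries in 7 of 23 windows in ExE and 3 of 13 in epiblast, against 6.27 and 6.0% of all windows, and the maternal allele in none, against 6.32 and 5.75%. Outside the run, the 3 further ExE windows had a paternal excess of 0.892 points (from 142588987), 14.7 points (from 142605359) and 18.0 points (from 142654308, in Igf2), and none passed the test. In 2 ExE windows the maternal allele was the higher one by a wider margin, without passing the test or doing so in all 4 libraries. Upstream of Igf2, the window from 142667808 had maternal values of 88.0, 73.5, 93.8 and 93.3% and paternal values of 73.1, 35, 40.7 and 94.9%. The maternal excess was 26.2 ± 24.3 points (limma SE 9.33, unadjusted p = 0.0303, adjusted p = 0.777), with the maternal allele higher in 3 of 4 libraries. The window that holds the end of Igf2 (chr7:142645169-142651520) gave both alleles in 3 ExE libraries and was not tested. Its maternal values there were 62.5, 60.7 and 57.8% and its paternal values 54.5, 14.3 and 34.1%, a maternal excess of 26.0 ± 19.4 points. Its allele values did not represent the whole window. In 3 of the 4 libraries of either tissue with both alleles, the value of both together lay above each allele. The median gap from the allele mean was 16.7 points. The median difference, maternal minus paternal, was -2.88 points over the 23 ExE windows and -3.85 over the 13 epiblast windows, against -0.0786 and -0.0572 over all windows. Over the intergenic windows the paternal excess was 4.91 ± 4.43 points in ExE (the 11 windows with both alleles in all 4 libraries, exact sign-flip permutation p = 0.25) and 4.24 ± 4.64 in epiblast (8 windows, p = 0.25 by the same permutation test).

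**Figure D2:**
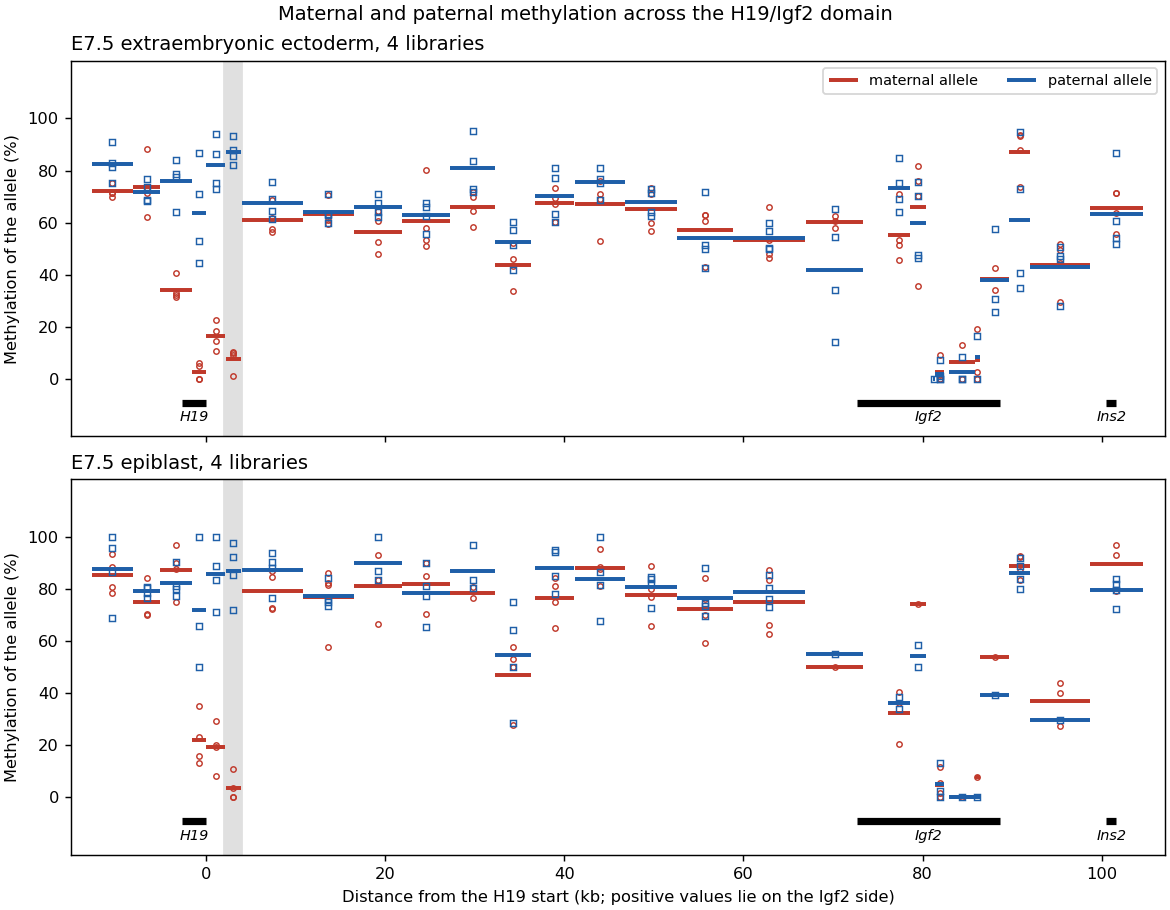
Methylation of the maternal (red) and paternal (blue) allele in percent (y axis) for the windows of the domain at E7.5 against the distance from the H19 start in kb (x axis), ExE above and epiblast below; points are libraries, bars span each window at its mean, and grey marks the ICR. The alleles stand apart from the ICR (maternal mean 7.74% in ExE, paternal 87.3%) into H19 and lie closer together in most other windows, with maternal excesses of 26.0 and 26.2 points in the ExE windows from 142645169 and 142667808.

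With both alleles counted together, the ICR did not separate the tissues. At E7.5 it was at 73.8, 50.8, 36.4 and 38.7% in epiblast and at 44.3, 39.0, 58.4 and 47.9% in ExE, a difference of 2.53 points (limma SE 7.82, adjusted p = 0.779). The neighbour on the H19 side was at 52.8, 38.6, 54.7 and 56.5% in epiblast and 49.4, 35.0, 57.7 and 56.8% in ExE, a difference of 0.921 points. Most of the genome was more methylated in epiblast, with a median difference of 16.5 points and 84.2% of windows called by limma, 82.9% higher and 1.3% lower in epiblast. In the domain 21 of 31 windows were called, 18 higher and 3 lower in epiblast, and the median was 10.7 points.

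The tissue groups did not overlap in 17 of the 31 windows, 14 with epiblast higher and 3 with ExE higher, against 73.8 and 1.35% of all windows. Because the tissues differ in their overall level, the calls were also made after subtracting each library's mean. The split in the domain then became 1 higher and 12 lower, and that over all windows became 72972 higher and 79745 lower, and 1 of the 18 windows was still called higher.

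H19 itself was less methylated in ExE. The H19 start window was at 55.0, 57.8, 68.0 and 81.2% in epiblast and at 42.3, 38.2, 44.3 and 41.4% in ExE, and the groups did not overlap (difference 23.9 points, limma SE 4.06, adjusted p = 0.000708). The window at its 3′ end differed by 19.7 points (limma adjusted p = 0.00238). Neither passed after the library means were subtracted, with differences of 7.62 and 3.38 points. In the H19 start window the value of both alleles together lay a median of 13.7 points above the mean of its allele values.

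Igf2 held the largest opposite differences. The window over most of the last exon of Igf2 (chr7:142651546-142654301) was at 35.9, 39.2, 41.7 and 41.1% in epiblast and at 69.7, 59.5, 72.5 and 61.7% in ExE, a difference of -26.4 points (limma SE 3.18, adjusted p = 0.000166). The next window (chr7:142654308-142656784), which holds Mir483, was at 32.1, 23.4, 33.9 and 52.5% against 66.8, 64.1, 64.97 and 56.3%, a difference of -27.6 points (limma SE 5.47, adjusted p = 0.00158). All epiblast values were below all ExE values in both. They were followed by a window around an Igf2 start (chr7:142656785-142658493) that was lower in epiblast by a smaller margin (-7.61 points, limma adjusted p = 0.0379). All 3 stayed lower in epiblast after the library means were subtracted. The end of Igf2 itself lay in the window before them (chr7:142645169-142651520), which was higher in epiblast, at 67.2, 73.8, 77.0 and 80.1% against 65.9, 56.1, 63.6 and 65.5% in ExE (11.7 points, limma SE 2.90, adjusted p = 0.00491), and was -4.58 points with the means subtracted.

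The allele values could say little about these windows. The window over most of the last exon had no allele value in any library. In the window from 142654308, ExE maternal values were 71.1, 53.3, 45.6 and 51.6% and paternal values 75.3, 69.2, 85.0 and 64.1%, a paternal excess of 18.0 ± 15.1 points (limma adjusted p = 0.777). Epiblast gave both alleles in 2 libraries.

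The CpG-rich Igf2 starts had low methylation in both tissues. The 5 windows of under 1 kb within Igf2, not all of which hold an Igf2 start, ranged from 0.137 to 7.89% over all 8 libraries. The longer window from 142661065 to 142663995, which holds further Igf2 starts, ranged from 2.74 to 5.65% in epiblast and from 1.97 to 10.7% in ExE. The window of the promoter at 142658804, shown above with 22 CpGs, was at 1.3, 2.88, 2.54 and 0.694% in epiblast and at 2.79, 2.4, 0.799 and 2.21% in ExE. No difference was detectable between these values (-0.195 points, limma SE 1.92, adjusted p = 0.932). Igf2os, the antisense transcript, starts in a window (chr7:142659575-142660537) that ranged from 0.778 to 7.38%. Its alleles were measured in all ExE libraries, at 0, 1.45, 9.26 and 0% for the maternal and 1.22, 7.25, 0 and 0% for the paternal allele.

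The promoter at 142666816, shown above with 1 CpG, lay in a window (chr7:142664529-142667807) at 58.2, 55.2, 55.0 and 54.3% in epiblast and 53.4, 50.6, 53.9 and 51.8% in ExE (difference 3.2 points, limma adjusted p = 0.176). Upstream of it, the window from 142667808 to 142670137 had the largest positive difference between the tissues in the domain. It was at 85.7, 89, 83.9 and 89.95% in epiblast and at 66.3, 58.4, 57.7 and 62.2% in ExE (difference 26.0 points, limma SE 2.71, adjusted p = 0.000109). It was also the only window still called higher in epiblast after the library means were subtracted (9.66 points, limma adjusted p = 0.0141). At Ins2, which encodes insulin, epiblast values were 81.4, 74.3, 75.3 and 74.7% and ExE values 56.9, 53.2, 59.1 and 64.1% (18.1 points, limma adjusted p = 0.000555), but the difference was 1.79 points with the means subtracted.

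**Figure D3:**
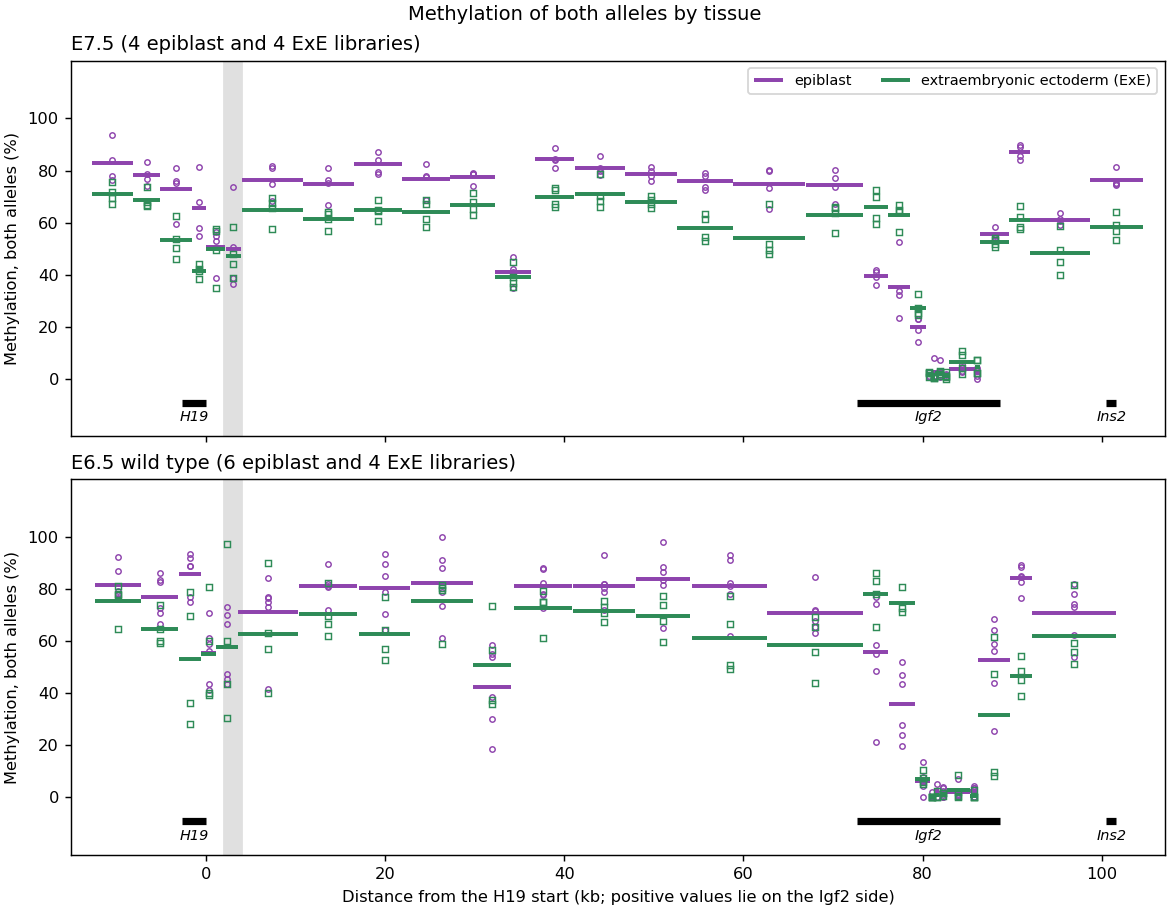
Methylation of both alleles together in percent (y axis) across the domain against the distance from the H19 start in kb (x axis), for E7.5 (above) and wild-type E6.5 (below); points are libraries, bars span each window at the tissue mean, purple is epiblast and green ExE. The epiblast mean is above the ExE mean in 12 of 12 intergenic windows at E7.5 and 9 of 10 at E6.5, the tissues meet at the ICR (grey), and ExE is above epiblast over most of the last exon of Igf2.

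At E6.5 fewer windows differed between the tissues of the wild-type pools. Of the 21 windows tested, limma called 8, 7 higher and 1 lower in epiblast, against 60.3% of all windows (59.6% higher and 0.663% lower). The median difference was 8.63 points in the domain and 16.6 over all windows. With the library means subtracted, the split became 1 higher and 5 lower, and over all windows 15525 higher and 21893 lower. The wild-type tissue groups did not overlap in 1 window, with epiblast higher, against 17.1% of all windows with epiblast higher and 0.345% with it lower.

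That window was again the one upstream of Igf2 (chr7:142667862-142670387), at 76.7, 84.7 and 89.1% (lowest, median and highest of 6) in epiblast and at 45.1, 48.4, 54.4 and 38.7% in ExE. The difference was 37.7 points (limma SE 4.17, adjusted p = 0.000418). The window over most of the last exon of Igf2 (chr7:142651480-142654327) was lower in epiblast, by -22.4 points (epiblast minus ExE, limma SE 8.63, adjusted p = 0.041), with values from 21.3 to 77.0% in epiblast and from 65.6 to 85.9% in ExE. The ICR window, with m4 and m3, ranged from 43.4 to 72.9% with a median of 57.02% in epiblast. In ExE it was at 30.4 and 59.9% in B6/CAST and at 97.4 and 43.6% in CAST/B6, and the tissue difference was -0.206 points (limma SE 10.3). These ExE libraries ranged from 30.4 to 97.4% at the ICR, so that a difference of several points could not have been detected.

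The window over most of H19 (chr7:142575192-142577579) showed the widest cross difference of the domain at E6.5. In ExE it was at 28.3 and 36.4% in B6/CAST and at 78.9 and 69.4% in CAST/B6. The crosses did not overlap and differed by -41.8 points, B6/CAST minus CAST/B6 (limma SE 9.98, adjusted p = 0.111; exact permutation p = 0.333, the smallest that 2 against 2 allow). In epiblast the same window was at 76.9, 91.7 and 88.7% in B6/CAST and at 93.2, 88.8 and 75% in CAST/B6, which overlapped. At E7.5 the H19 start window did not separate the crosses in ExE, with 42.3 and 38.2% against 44.3 and 41.4%. Across wild-type libraries at E6.5 the window differed between tissues by 32.5 points (limma SE 7.82, adjusted p = 0.00514). Within B6/CAST the tissues did not overlap in it, and within CAST/B6 they did.

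CAST/B6 libraries were more methylated than B6/CAST libraries over the whole table at E6.5, and 13 of 21 epiblast and 15 of 22 ExE windows of the domain had the same direction, against 86.6 and 84.8% of all windows. No window of the domain was called by limma between the crosses, nor any of all windows (0.0% in both tissues), and 2 of 21 in epiblast and 2 of 22 in ExE had an unadjusted p under 0.05, against 14.2 and 23.3%. The crosses did not overlap in 3 of 23 epiblast windows, all lower in B6/CAST (24.3% of all windows, with 0.59% higher), and in 11 of 23 ExE windows, 9 lower (54.3%) and 2 higher in B6/CAST (3.8%). The median difference of the domain was -6.18 points in epiblast and -7.90 in ExE, against -8.00 and -11.5 over all windows. At the ICR it was -11.6 points in epiblast (limma SE 8.70) and -25.4 in ExE (limma SE 17.0), and without CAST/B6 ExE library 1 the ExE value was 1.52.

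At E7.5 the crosses could be compared at the ICR as well. With both alleles together, epiblast was at 73.8 and 50.8% in B6/CAST and 36.4 and 38.7% in CAST/B6, whereas ExE was at 44.3 and 39.0% against 58.4 and 47.9%. The crosses did not overlap in either tissue, with opposite order, a contrast that was not tested. In epiblast 5 of 31 windows were higher and 11 lower in B6/CAST without overlap (9.45 and 25.1% of all windows), and in ExE 3 were higher and 6 lower (15.5 and 18.9%).

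The last comparison set matDKO/CAST embryos, which came from oocytes without de novo methylation, against B6/CAST embryos at the ICR and over the rest of the domain. The ICR window was at 46.2 and 52.9% in matDKO/CAST epiblast and at 43.4, 66.7 and 45.3% in B6/CAST epiblast, which has the same parental strains apart from the 129 share. In ExE it was at 33.3, 31.1 and 50% in matDKO/CAST and at 30.4 and 59.9% in B6/CAST. The groups overlapped in both tissues. At E7.5 the wild-type maternal allele was at no more than 10.9% in the ICR window and 29.2% in its neighbour on the H19 side. Little maternal methylation could therefore be lost at the ICR, and the overlap cannot decide whether it depends on the oocyte. The difference, matDKO/CAST minus B6/CAST, was -2.23 points in epiblast (limma SE 9.73; exact permutation p = 1, the smallest possible being 0.2) and -7.00 in ExE (limma SE 15.5; exact permutation p = 0.8). The next window (chr7:142581761-142588481), with m2, m1 and the rest of the RefSeq ICR, was at 62.5 and 30% in matDKO/CAST epiblast, around the 41.7, 75 and 76.7% of B6/CAST (-18.2 points, limma SE 12.5, adjusted p = 0.28). In ExE it was at 36.8, 36.5 and 50% in matDKO/CAST, below both B6/CAST values of 63.2 and 57.1% (-19.0 points, limma SE 13.01, adjusted p = 0.346). Allele values at E6.5 were not analysed here.

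Around it, methylation was lower in matDKO/CAST, as it was over all windows. In epiblast limma called 4 of 21 windows, all lower in matDKO/CAST, against 23.4% of all windows. Of those 45064 called windows, 45008 were lower in matDKO/CAST, again 23.4% of all. In the domain the groups did not overlap in 8 windows, 7 lower and 1 higher in matDKO/CAST (49.4 and 0.784% of all windows). The domain median was -13.6 points, against -16.4 over all windows. In ExE limma called 0 of 22 windows and 0.0% of all windows, with 5 in the domain and 25.8% of all at an unadjusted p under 0.05. There the groups did not overlap in 10 windows lower and 1 higher in matDKO/CAST (47.7 and 0.589%), and the median was -11.8 points against -12.4.

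The called epiblast windows were spread along the domain. The H19 window (chr7:142575192-142577579) was at 46.7 and 63.8% in matDKO/CAST, below all 3 B6/CAST values of 76.9, 91.7 and 88.7% (-30.5 points, limma SE 8.11, adjusted p = 0.0324). The window with most of Ins2 but not its start (chr7:142670388-142679693) was at 33.1 and 32.3%, against 62.3, 73.2 and 78.1% (-38.5 points, limma SE 8.62, adjusted p = 0.0217). The other 2, at 142595209 and 142612546 in Gm33148 between the genes, differed by -20.6 and -25.3 points. No window of the domain remained called on the logit scale, after the library means were subtracted, or when only these 2 crosses were fitted. These settings also called 0 of all windows. None of the domain was called without B6/CAST epiblast library 3 or without the unnumbered one, against 20818 of 206537 and 10485 of 192789 windows. Without CAST/B6 epiblast library 2, 2 were called, against 24202 of 192863.

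In ExE the H19 window did not show the difference, with 33.7, 31.0 and 58.3% in matDKO/CAST around the 28.3 and 36.4% of B6/CAST (8.65 points, limma SE 9.11). Over the intergenic windows matDKO/CAST was lower in both tissues, at 49.95 ± 2.29% (SD, n = 2) against 69.5 ± 8.02% (n = 3) in epiblast and 41.9 ± 3.15% (n = 3) against 60.02 ± 0.836% (n = 2) in ExE. The groups did not overlap, and the exact permutation p was 0.2 in each tissue, the smallest possible. The windows over the Igf2 starts from 142657314 to 142664278 were low in every group, with values up to 12.5% in matDKO/CAST epiblast and 15.8% in matDKO/CAST ExE, against 13.6 and 10.4% in wild type.

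**Figure D4:**
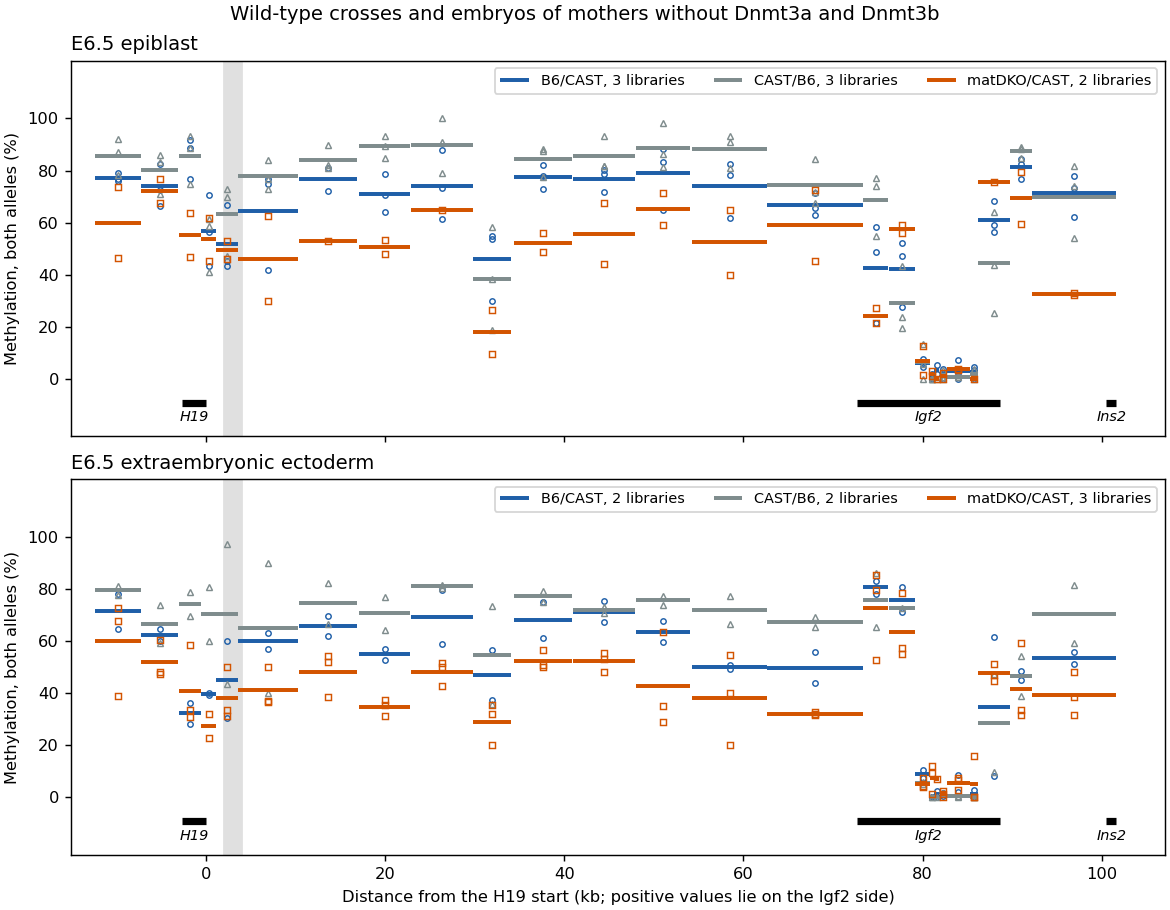
Methylation of both alleles together in percent (y axis) at E6.5 in B6/CAST (blue), CAST/B6 (grey) and matDKO/CAST (orange) against the distance from the H19 start in kb (x axis), epiblast above and ExE below; points are libraries, bars span each window at the group mean, and the grey band is the ICR. The matDKO/CAST bars lie below the others over the intergenic region. In the ICR window, with m4 and m3, the matDKO/CAST bar is also the lowest, but the library points overlap. The means there, in the order of the colours, are 51.8, 63.4 and 49.6% in epiblast and 45.1, 70.5 and 38.1% in ExE.

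To find loci with a pattern like that of the ICR, the 16 allele columns at E7.5 were compared between the ICR window, with a mean of 5.68% on the maternal and 87.0% on the paternal allele, and 237637 windows outside the domain. The measure was the root mean square distance in points, whose median over those windows was 51.3. The nearest, at 6.98 points, was chr12:109528391-109530547, which lies 345 bp from Gm27528. It was followed by a window over Nespas and Gnas (chr2:174285373-174286218) at 13.2 points, one over Gm11608 near Zdbf2 (chr1:63264506-63266927) at 18.4, one over Airn (chr17:12769932-12774062) at 31.1 and one over B3glct (chr5:149676076-149678317) at 32.0. Their mean maternal and paternal levels were 7.04 and 84.7%, 9.23 and 82.2%, 21.3 and 74.3%, 45.0 and 73.0%, and 35.0 and 57.2%.

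A list of 18 genes linked to insulin-like growth factors, each given by the window of its start, included Ins2, whose E7.5 window is part of the domain. At E6.5 the start of Ins2 lay in a window (chr7:142679694-142697627) with its midpoint beyond the domain. That window is not the called one given above, and was not tested between matDKO/CAST and B6/CAST in epiblast. All 18 genes were tested between tissues at E7.5, with a median difference of -0.188 points. Of these, 3 were called higher and 2 lower in epiblast (82.9 and 1.3% of all windows). The higher ones were the insulin genes Ins1 (31.6 points) and Ins2, given above, and the binding protein gene Igfbp1 (19.5 points). The lower ones were the binding protein genes Igfbp5 (-11.0 points) and Igfbp6 (-9.98 points). At E6.5 11 were tested, with Ins1 higher (39.9 points) and Igfbp5 lower (-15.7 points), against 59.6 and 0.663% of all windows. None of the tested genes was called between alleles, 13 in ExE and 10 in epiblast, nor between matDKO/CAST and B6/CAST, 7 in epiblast and 12 in ExE.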

How the data were processed

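Post-bisulphite adaptor tagging libraries of 15 E6.5 and 8 E7.5 samples were analysed. Per the study's methods, reads were trimmed, mapped by Bismark to GRCm38 with strain SNPs masked and sorted by allele with SNPsplit, and the authors deposited the percent methylation of windows of 100 CpG, without coverage. By the reference sequence a domain window holds 38 to 65 CpG dinucleotides. The submitters' notes name Bismark 0.20.0 and Trim Galore 0.4.4.

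Deposited percentages were tested with limma 3.58.1 (R 4.3.3) on autosomal windows measured in every library of a comparison, with Benjamini-Hochberg adjustment at 0.05 over all of them. Parental differences were maternal minus paternal within a library, with cross as covariate, and tissue fits also included cross. Position means were compared by exact permutation tests (Python 3.11.15, NumPy 2.4.6). The limma code was tested on simulated data. At most 0.744% of values were identical between 2 libraries of a table. One B6/CAST E6.5 epiblast column matched its group alone and has no replicate number here.

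Described were the windows of the ICR, of gene starts and of the Igf2 last exon, and called, lowest and highest windows. The domain, gene lists and tests were chosen with earlier results of these data known. Alternatives covered the variance trend, the logit scale, missing values, replicate blocks, subtracted library means, crosses, a minimum of 20 points and libraries left out. A coverage minimum could not be applied.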

Additional observations from a re-analysis of the deposited data

Results flagged for a closer look

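In the 40 groups of 4 to 10 libraries examined by position, 2 held a library far from the others, where chance gives about 1 in 20. The parental difference (maternal minus paternal) over the Igf2 body in ExE was 8.12 points in B6/CAST E7.5 library 1, against -9.03 to -6.17 in the other 3. Methylation upstream of Igf2 in E7.5 ExE was 61.6% in CAST/B6 library 2, against 53.7 to 54.4% in the other 3. The parental difference over 2 windows on the far side of H19, one of which holds its last part, differed between epiblast and ExE by 27.4 points, with no overlap of the 4 and 4 libraries (exact permutation p = 0.0286, the smallest these numbers allow, not adjusted for the 5 positions compared). The limma fit over all windows called neither of the windows behind this value.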

How the results depend on the processing

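The parental difference at the ICR kept its direction in all alternatives run, and leaving out 1 library at a time gave -81.7 to -75.4 points in ExE and -86.9 to -78.4 in epiblast (maternal minus paternal). The limma calls behind it were less stable. Of 2 ExE and 1 epiblast windows called, 0 remained in ExE and 0 in epiblast when windows with 1 missing library were admitted, with a variance trend over the mean difference (chosen after seeing the data), and without any 1 library. Each of these settings also called 0 of all windows. In ExE 3 were called with trend and robust fitting (53 of all 318358) and 3 on the logit scale (48 of all). In epiblast 2 were called with trend and robust fitting (28 of all 238529), and 2 without the cross term (22 of all). The difference between the tissues ranged from -7.80 to 1.18 points as single libraries were left out.

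Between tissues at E7.5, 5 of the 21 called windows (of 31) differed by at least 20 points, against 139679 of all 383556 windows. With library means subtracted 13 of 31 were called, against 152717 of all. That centring turned the ICR difference to -13.8 points (exact permutation p = 0.2) and turned 11 windows, to -4.36 (from 142565417), -6.85 (142570070), -4.91 (142582140), -2.80 (142588987), -3.59 (142600083), -5.58 (142605359), -1.61 (142614883), -6.05 (142619314), -5.46 (142624945), -4.58 (142645169) and -3.42 points (142670138). At E6.5 it turned 3, to -3.99 (142570942), -2.40 (142626097) and -4.49 points (142640763). Without single libraries the ICR tissue difference ran from -5.43 to 7.03 points at E7.5 and from -9.36 to 12.98 at E6.5. At E6.5 it was 4.21 points with every window that overlaps the ICR. The 8 windows called at E6.5 became 5 on the logit scale, 4 at 20 points or more, 4 without the cross term, and 4 to 8 with libraries left out. Over all windows, 151238 calls of 250886 became 136724, 96842, 117814, and 122305 to 158319, in the same order.

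For matDKO/CAST against B6/CAST in epiblast, the 4 called windows became 0 on the logit scale, 0 with library means subtracted and 0 with only these 2 crosses fitted. Over all windows these settings also gave 0 calls, against 45064 of 192419 in the main fit. Against both wild-type crosses 8 of 21 were called, and 102144 of all 192419 windows. With libraries left out 0 to 4 were called, and 10485 to 55426 over all windows. In ExE 9 of 22 were called against both wild-type crosses, and 124706 of all 254322 windows. With means subtracted the ICR difference was 14.7 points in epiblast and 4.96 in ExE, and leaving out libraries gave -6.42 to 5.20 and -21.8 to 7.78. Between the wild-type crosses it ran from -19.7 to -6.88 in epiblast and from -52.2 to 1.52 in ExE.

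The labels give groups the same replicate numbers, but same-numbered libraries did not deviate together (every correlation within 0.051 of 0), so the numbers were not taken to pair them. At E7.5 both numbers of a cross gave the same correlation, since 2 libraries deviate equally from their mean. This check cannot tell whether E7.5 tissues came from the same embryo. The exact tests between tissues took all libraries as independent. With the replicate block, 0 domain windows were called for the parental difference in ExE and 0 for matDKO/CAST in epiblast, and 0 over all windows in both. Between tissues at E6.5 it left 1 call in the domain and 54837 among 274214 windows, and the ICR difference was 4.99 points.

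A coverage minimum was not run, since the values carry no coverage, and the depth behind each allele value is unknown. With 2 or 3 libraries a group, exact tests reach at best 0.2 or 0.333 in several comparisons. The cause of these changes was not tested.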

Other observations

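The value of both alleles together need not lie between the allele values, since allele values use only reads over strain differences. In the window chr7:142656785-142658493, around an Igf2 start, the value of both alleles at E7.5 was below each allele in 4 of the 4 libraries that had both, by a median of 40.2 points from the allele mean (-40.2). In ExE the maternal values there were 76.2, 70.2, 81.9 and 35.8% and the paternal values 46.4, 75.6, 70.2 and 47.6%, while both alleles together were at 24.4, 27.3, 32.5 and 25.5%. At the ICR the same gap ran from -15.2 to 25.0 points over 8 libraries, always between the alleles.

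The start of Igf2r, which encodes the receptor that clears Igf2, had the largest maternal-minus-paternal difference among the tested genes linked to insulin-like growth factors. It was at -29.5 points in ExE and -41.1 in epiblast, and neither passed the test (limma adjusted p = 0.777 and 0.941).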
